A study of Mus musculus with 12 samples.

Results

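The 10 genes described here encode the machinery that makes peptides and loads them onto MHC class I molecules. They are B2m, Tap1, Tap2, Tapbp, Psmb8, Psmb9, Psmb10, Nlrc5, Erap1 and Psme1, out of 18193 genes that could be tested. They were chosen by name, with earlier results of these data known, so their shares beside those of all genes are descriptions. Every array probe set annotated to 1 of these genes alone was taken, which gave 17 of the 34945 probe sets with a single gene. Where a gene had several probe sets, the brightest on average over the 12 arrays stands for it, and the others are given beside it.

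Gene expression was measured in C790 cells, a mouse melanoma line with mutant Nras, on 12 Affymetrix arrays in 4 groups of 3. All cells carried a doxycycline-inducible lentiviral vector for Oct4, Sox2 and Klf4 with a blasticidin resistance gene, and a further vector for the constitutive M2 transactivator with mCherry. Partially reprogrammed cells (+dox) had received doxycycline and were taken at day 20. Control cells (−dox) held the same vectors and were kept without doxycycline to the same day. Both were treated for 72 h with trametinib, a MEK inhibitor, or with its solvent DMSO, which gave +dox trametinib, +dox DMSO, −dox trametinib and −dox DMSO arrays. The trametinib concentration used for the arrays is not given in the labels. The study selected cells with blasticidin at day 3, and does not state whether control cells were selected too. Between +dox and −dox cells, doxycycline itself, any such selection and the vector factors cannot be told apart. The labels do not say whether the replicates came from separate cultures, and the study describes its data as from independent experiments without naming the arrays. Where the replicates are not separate cultures, the p-values speak of the spread among these samples alone, which may be technical.

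Cells use this pathway to show fragments of their own proteins to CD8+ T cells. The proteasome cuts proteins in the cytosol, and its immunoproteasome form carries the catalytic subunits Psmb8, Psmb9 and Psmb10 in place of Psmb5, Psmb6 and Psmb7. Psme1 is a subunit of an activator ring that docks onto the proteasome. Tap1 and Tap2 form the pump that moves peptides into the endoplasmic reticulum, where Erap1 trims them. Tapbp (tapasin) holds the empty class I molecule at the pump, B2m is the invariant light chain of class I, and Nlrc5 is the transactivator that drives class I genes. Interferon-γ is a classical inducer of most of these genes, and tumours that lose the pathway are poorly seen by T cells.

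Promoter windows were looked up because several of these genes moved together, as described below. Of the 10 genes, 8 had a window in the RefSeq table used here (build GRCm38.p6), all but Nlrc5 and Tap2. Each window runs from 250 bases before to 30 bases after the start site, 5′ to 3′ on the strand of the gene. Motifs known from class I promoters were searched on both strands with the sequences in view. They were the core of the interferon-stimulated response element (ISRE, here GAAA, any 2 bases, GAAA), the interferon-γ activated site (GAS, TTCNNNGAA), the κB consensus, the core of the cyclic AMP response element (TGACG) and the CCAAT box (CCAAT). Shown are B2m with the most motifs, Erap1 and Psme1 as the others with an ISRE core, and Tap1, whose window is nearly that of Psmb9. Capitals mark the motif matches.
B2m: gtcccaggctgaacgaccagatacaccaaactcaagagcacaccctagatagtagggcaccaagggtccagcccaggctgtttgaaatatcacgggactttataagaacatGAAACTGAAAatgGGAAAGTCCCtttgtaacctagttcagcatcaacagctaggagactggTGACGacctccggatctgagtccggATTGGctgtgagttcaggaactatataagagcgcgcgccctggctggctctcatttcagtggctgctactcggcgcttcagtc
Erap1: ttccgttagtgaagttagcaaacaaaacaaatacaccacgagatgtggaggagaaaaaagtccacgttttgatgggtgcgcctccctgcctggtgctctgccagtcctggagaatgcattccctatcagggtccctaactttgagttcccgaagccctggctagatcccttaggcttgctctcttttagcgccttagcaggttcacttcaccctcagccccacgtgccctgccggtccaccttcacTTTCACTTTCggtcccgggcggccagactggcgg
Psme1: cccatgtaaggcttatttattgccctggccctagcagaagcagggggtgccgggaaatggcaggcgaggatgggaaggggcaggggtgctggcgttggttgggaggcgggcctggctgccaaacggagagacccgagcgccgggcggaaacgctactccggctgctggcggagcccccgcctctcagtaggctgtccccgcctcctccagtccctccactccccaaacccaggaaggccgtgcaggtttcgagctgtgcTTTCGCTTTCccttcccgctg
Tap1: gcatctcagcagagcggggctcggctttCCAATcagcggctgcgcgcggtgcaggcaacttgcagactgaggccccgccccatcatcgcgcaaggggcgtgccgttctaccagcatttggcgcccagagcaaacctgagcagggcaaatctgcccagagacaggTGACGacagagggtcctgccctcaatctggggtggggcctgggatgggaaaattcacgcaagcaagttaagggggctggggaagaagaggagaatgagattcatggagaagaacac
The windows lie at chr2:122147437-122147716 (plus strand) for B2m, chr13:74639603-74639882 (plus strand) for Erap1, chr14:55578244-55578523 (plus strand) for Psme1 and chr17:34187306-34187585 (plus strand) for Tap1. The first base of the ISRE core lay at -139 from the start site in B2m, at -4 in Erap1 and at 9 in Psme1, read on the minus strand of the gene in Erap1 and Psme1. These were 3 of 8 windows, while 3.28% of all 32851 windows of the same length held this core. B2m also held the κB consensus, found in 7.94% of all windows, the cyclic AMP response element core, found in 19.9%, and a CCAAT box, found in 36.1%, none overlapping another. Psmb8 was alone among the 8 in holding the GAS letters (7.83% of all windows). Tapbp held only CCAAT boxes, and Psmb10 held no match.
Tap1 and Psmb9 face away from each other on chromosome 17, and their start sites lie 226 bases apart. Their windows share 275 bases, so the CCAAT box and TGACG of Tap1 are those of Psmb9 read from the other side. Among coding genes, Psmb9, Tap1, Psmb8 and Tap2 follow each other there without another in between. A match to such short letters is a description of the sequence and not evidence of a bound factor.

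All values are log2 intensities, so a difference of 1 is a doubling. Background was judged from 84 probe sets for smell, pheromone and taste receptors, whose 95th percentile of means, 4.87, served as the background level. Of the 10 genes, 9 stood above it on all 12 arrays and Nlrc5 on 9. Genes were called where limma gave an adjusted p under 0.05, with Benjamini-Hochberg adjustment over all 18193 genes.

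Some facts on the arrays touch every result below. The genes that ERK signalling switches on answered to the drug: all 5 checked (Dusp6, Egr1, Spry4, Etv5 and Dusp4) fell with trametinib in +dox and in −dox cells. The melanocyte genes Tyr, Tyrp1, Dct, Mlana, Oca2 and Slc45a2 lay under the background level on all 12 arrays, while Mitf, Pmel and Sox10 lay above it on all. On −dox trametinib replicate 1, all 10 antigen processing genes were higher than on the other arrays of its group, by 0.94 on average, whereas 36.1% of all genes were. On −dox DMSO replicate 1, 7 of the 10 were lower than on the others of its group, by 0.38 on average over the 10, and 61.4% of all genes were lower too. The values of the 10 genes without these arrays, and the calls of other genes that are lost without them, are given below. Of the genes in the reprogramming vector, Pou5f1 (Oct4) averaged 5.45 on +dox DMSO arrays and 4.63 on −dox DMSO arrays, which is under background. The +dox mean lay 0.58 above that level, and Pou5f1 was called higher (adjusted p = 0.0155, limma). That call was lost without +dox DMSO replicate 3. Pou5f1 also rose with trametinib in −dox cells, where it measured 5.61, 5.56 and 5.32 on the trametinib arrays. The mean of these arrays lay 0.63 above the background level. The rise was called (adjusted p = 0.00325, limma), and this call was kept with each array left out. A Pou5f1 level above background was therefore not limited to +dox cells. Sox2 averaged 5.87 and 7.40 on +dox DMSO and −dox DMSO arrays (-1.53, adjusted p = 0.091). Klf4 averaged 9.30 and 9.45 in the same groups (-0.15, adjusted p = 0.80), so neither was called higher. Whether these probe sets read the transcript of the vector was not tested.

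**Figure D1:**
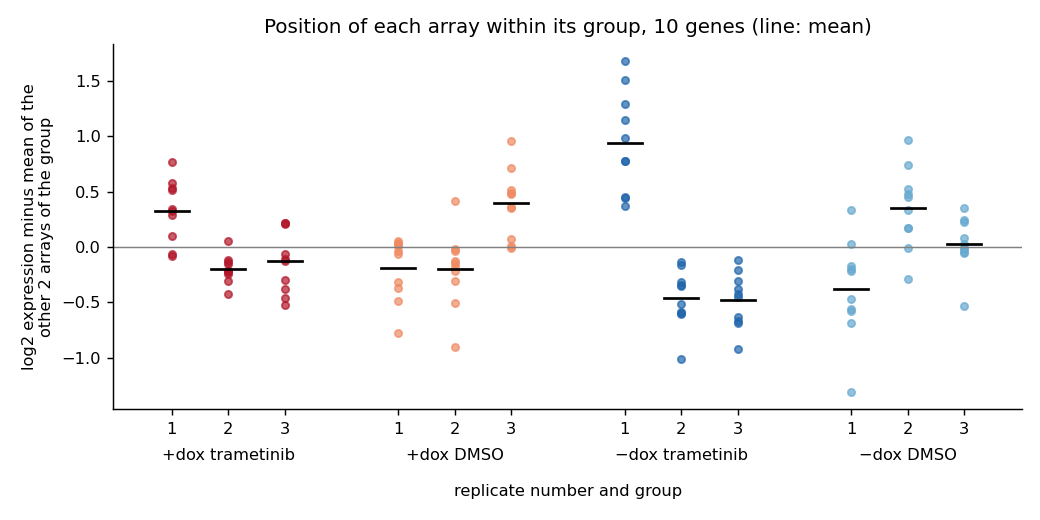
Each point is the log2 expression of 1 of the 10 genes on 1 array minus its mean on the other 2 arrays of the same group, by group and replicate number, and lines mark the mean over the 10 genes. All 10 points of −dox trametinib replicate 1 lie above 0, and that array has the mean farthest from 0.

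Trametinib raised most antigen processing genes in partially reprogrammed cells. In +dox cells 7 of the 10 were higher with trametinib (Nlrc5, Psmb8, Psmb9, Tap1, Tapbp, B2m and Tap2), 0 were lower and 3 did not pass (Psmb10, Erap1 and Psme1). Over all genes 13.8% were higher in this comparison and 12.5% were lower. The median log2 change of the 10 genes was 1.26, against 0.02 over all genes, and 3.23% of all genes had a change at least as large as that median. Trametinib arrays did not overlap with DMSO arrays, and were higher, for 8 of the 10, against 22.1% of all genes. With a fold change over 2 as a further condition 6 of the 10 remained (all 7 but Tap2), against 4.74% of all genes.

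Nlrc5, the transactivator of class I genes, had the largest response of the 10. Its log2 expression was 8.74, 8.07 and 7.88 on the +dox trametinib arrays, against 3.56, 4.36 and 4.32 on the +dox DMSO arrays. All 3 DMSO values were under the background level, so the gene was at or near background in +dox cells without the drug and clearly above it with the drug. The trametinib mean lay 3.36 above the background level on the log2 scale. The fitted rise was 4.15 (95% interval 3.24 to 5.06, adjusted p = 5.01e-05, limma), of which the size is not exact. In −dox cells Nlrc5 was 8.23, 6.83 and 6.61 with trametinib, against 5.56, 6.20 and 5.35 with DMSO. These groups did not overlap either, and the rise was 1.52 (standard error 0.41, adjusted p = 0.022, limma). That −dox call was lost without −dox trametinib replicate 1 (1.02, adjusted p = 0.055), without −dox DMSO replicate 1 (1.45, 0.052) and without −dox DMSO replicate 3 (1.34, 0.077).

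The catalytic subunits of the immunoproteasome came next. Psmb8 measured 10.40, 9.76 and 9.97 with trametinib, against 7.75, 7.19 and 8.43 with DMSO in +dox cells. The groups lay more than 1 log2 unit apart, and the change was 2.25 (standard error 0.43, adjusted p = 0.0024, limma), a 4.77-fold rise. Psmb9 measured 9.57, 9.20 and 9.26 on +dox trametinib arrays, against 6.94, 7.12 and 7.74 on +dox DMSO arrays, and rose by 2.08 (standard error 0.41, adjusted p = 0.0033), or 4.22-fold. The second Psmb8 probe set lay under background on all arrays (0.73, adjusted p = 0.0425 over probe sets, in +dox cells). Psmb10, the remaining immunoproteasome subunit, measured 10.42, 9.93 and 9.88 with trametinib, against 9.08, 9.18 and 9.62 with DMSO. Its groups did not overlap, but the change of 0.78 (standard error 0.31) did not pass over all genes (adjusted p = 0.086, limma). It passed with only the 6 +dox arrays in the fit (adjusted p = 0.020) and without −dox trametinib replicate 1 (0.018), which both leave the change itself as it is.

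In −dox cells no immunoproteasome subunit passed the test for trametinib. Psmb8 measured 10.72, 8.92 and 9.15 with trametinib, against 9.44, 9.69 and 9.59 with DMSO. Replicate 1 with trametinib was above every DMSO array, and the other trametinib arrays were below every one, so the mean change of 0.02 (95% interval -0.91 to 0.96) covers values on both sides. Psmb9 measured 8.72, 7.46 and 7.40 with trametinib, against 6.69, 8.21 and 7.80 with DMSO, a change of 0.29 (95% interval -0.62 to 1.2). Psmb10 measured 10.56, 9.45 and 9.37 with trametinib, against 9.38, 10.07 and 9.81 with DMSO, a change of 0.04 (95% interval -0.63 to 0.71). For all 3 subunits, trametinib replicate 1 was the highest of the 6 −dox arrays.

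The subunits that immunoproteasomes replace did not pass the test in any comparison. In +dox cells Psmb5 averaged 11.20 ± 0.16 with trametinib and 11.30 ± 0.18 with DMSO (SD, n = 3 each), Psmb6 averaged 10.94 ± 0.10 and 11.10 ± 0.06 (SD, n = 3 each), and Psmb7 averaged 10.27 ± 0.30 and 10.51 ± 0.22 (SD, n = 3 each). Of the 16 other subunits of the proteasome core and its assembly factors, 7 were lower with trametinib in +dox cells, 0 were higher and 9 did not pass. The 7 were 43.8% of these, against 12.5% of all genes. The assembly factors Psmg2 (-1.01) and Psmg1 (-0.69) and the core subunit Psma7 (-0.64) had the largest falls. In −dox cells 1 of these 16 was lower (Psmg1, -0.44), or 6.25% against 10.8% of all genes, and 0 were higher. Of 17 subunits of the regulatory cap, 1 was lower in +dox cells (Psmd12, -0.54), or 5.88% against 12.5% of all genes. In −dox cells 2 were higher (Psmd13, 0.47 and Psmc5, 0.40). That is 11.8%, near the 11.6% of all genes. The 3 calls in −dox cells were lost in 10 (Psmg1), 7 (Psmd13) and 8 (Psmc5) of the 12 fits that leave out an array.

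**Figure D2:**
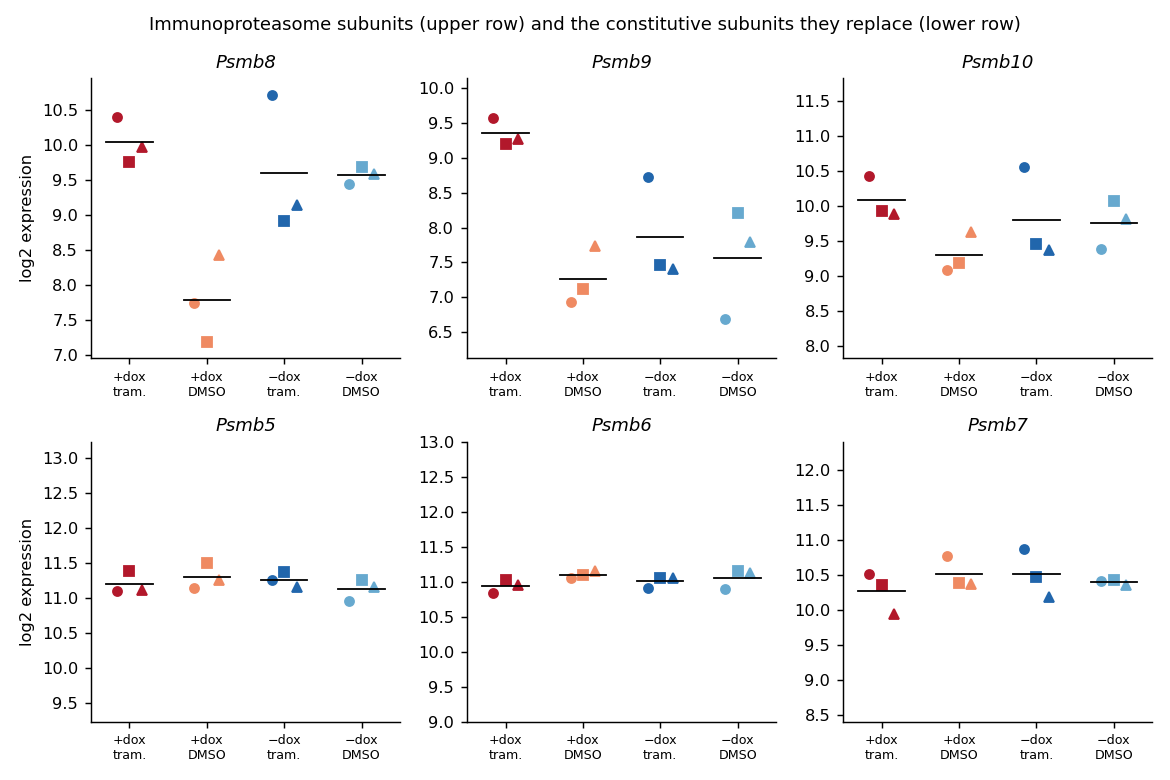
Log2 expression of the immunoproteasome subunits (upper panels) and of the constitutive catalytic subunits (lower panels) on each array, in +dox trametinib, +dox DMSO, −dox trametinib and −dox DMSO cells (circle, square and triangle for replicates 1, 2 and 3, lines for means). Every panel spans the same log2 range; Psmb8 and Psmb9 are clearly higher with trametinib in +dox cells, and Psmb5, Psmb6 and Psmb7 lie within narrow bands.

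Both subunits of the peptide pump responded in +dox cells. Tap1 measured 8.95, 8.91 and 9.15 with trametinib, against 7.31, 7.46 and 7.90 with DMSO, a rise of 1.45 (standard error 0.27, adjusted p = 0.0020, limma). A further Tap1 probe set, at lower intensity, averaged 5.73 ± 0.11 and 5.25 ± 0.16 in these groups (SD, n = 3 each) and did not pass (0.47, adjusted p = 0.24 over probe sets), and the remaining pair of Tap1 probe sets lay under the background level on all arrays. Tap2 measured 8.98, 8.92 and 9.17 with trametinib, against 8.28, 8.26 and 8.28 with DMSO, a smaller rise of 0.75 (standard error 0.19, adjusted p = 0.013). The DMSO arrays of Tap2 were almost identical to each other. In −dox cells neither passed: Tap1 measured 9.19, 8.13 and 8.28 with trametinib, against 7.67, 8.33 and 7.95 with DMSO, a change of 0.55 (95% interval -0.04 to 1.14). Tap2 measured 9.74, 8.99 and 8.94, against 9.31, 8.90 and 9.06, a change of 0.13 (95% interval -0.29 to 0.55). For both genes the trametinib and DMSO arrays of −dox cells overlapped.

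Tapbp and B2m rose with trametinib in both cell states. Tapbp measured 12.36, 12.02 and 12.13 on +dox trametinib arrays, against 10.79, 10.43 and 11.09 on +dox DMSO arrays, a rise of 1.40 (standard error 0.17, adjusted p = 0.00017, limma). In −dox cells it measured 12.58, 12.22 and 12.19 with trametinib, against 11.50, 11.73 and 11.61 with DMSO, a rise of 0.72 (adjusted p = 0.011). The trametinib arrays of both states reached similar levels, whereas +dox DMSO arrays were lower than −dox DMSO arrays. B2m measured 14.08, 13.90 and 13.61 with trametinib in +dox cells, against 12.77, 12.72 and 12.74 with DMSO, a rise of 1.12 (standard error 0.20, adjusted p = 0.0017). In −dox cells B2m measured 14, 13.61 and 13.50 with trametinib, against 12.41, 13.17 and 13.02 with DMSO, a rise of 0.84 (adjusted p = 0.011). The groups did not overlap in either state. The second probe set of each gene gave 1.36 for Tapbp and 1.14 for B2m in +dox cells. In −dox cells these probe sets gave 0.85 for Tapbp (adjusted p = 0.0575 over probe sets) and 0.75 for B2m (0.0164).

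Erap1, the trimming peptidase, gave different answers by probe set. On the probe set with the higher mean it measured 8.94, 8.48 and 8.25 with trametinib, against 8.03, 7.85 and 8.29 with DMSO in +dox cells. These overlapped, and the change of 0.50 did not pass (95% interval -0.05 to 1.05, adjusted p = 0.19, limma). The other Erap1 probe set measured 7.91, 7.39 and 7.35 with trametinib, against 5.99, 5.84 and 6.38 with DMSO, without overlap. Tested among all probe sets it rose by 1.48 in +dox cells (adjusted p = 0.0038) and by 1.05 in −dox cells (0.027). With the mean of both probe sets as the gene value, Erap1 passed in +dox cells (0.99, adjusted p = 0.018).

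Psme1 was the only gene of the 10 called lower with trametinib. In +dox cells it measured 11.55, 11.28 and 11.62 with trametinib, against 11.56, 11.44 and 11.57 with DMSO, and the change was -0.04 (95% interval -0.34 to 0.26). In −dox cells it measured 11.70, 11.17 and 11.32 with trametinib, against 12, 11.98 and 11.97 with DMSO, so all trametinib arrays were lower. It fell by 0.59 there (standard error 0.14, adjusted p = 0.010, limma). Its partner in the activator ring, Psme2, is not analysed here, because its probe sets are not annotated to it alone.

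**Figure D3:**
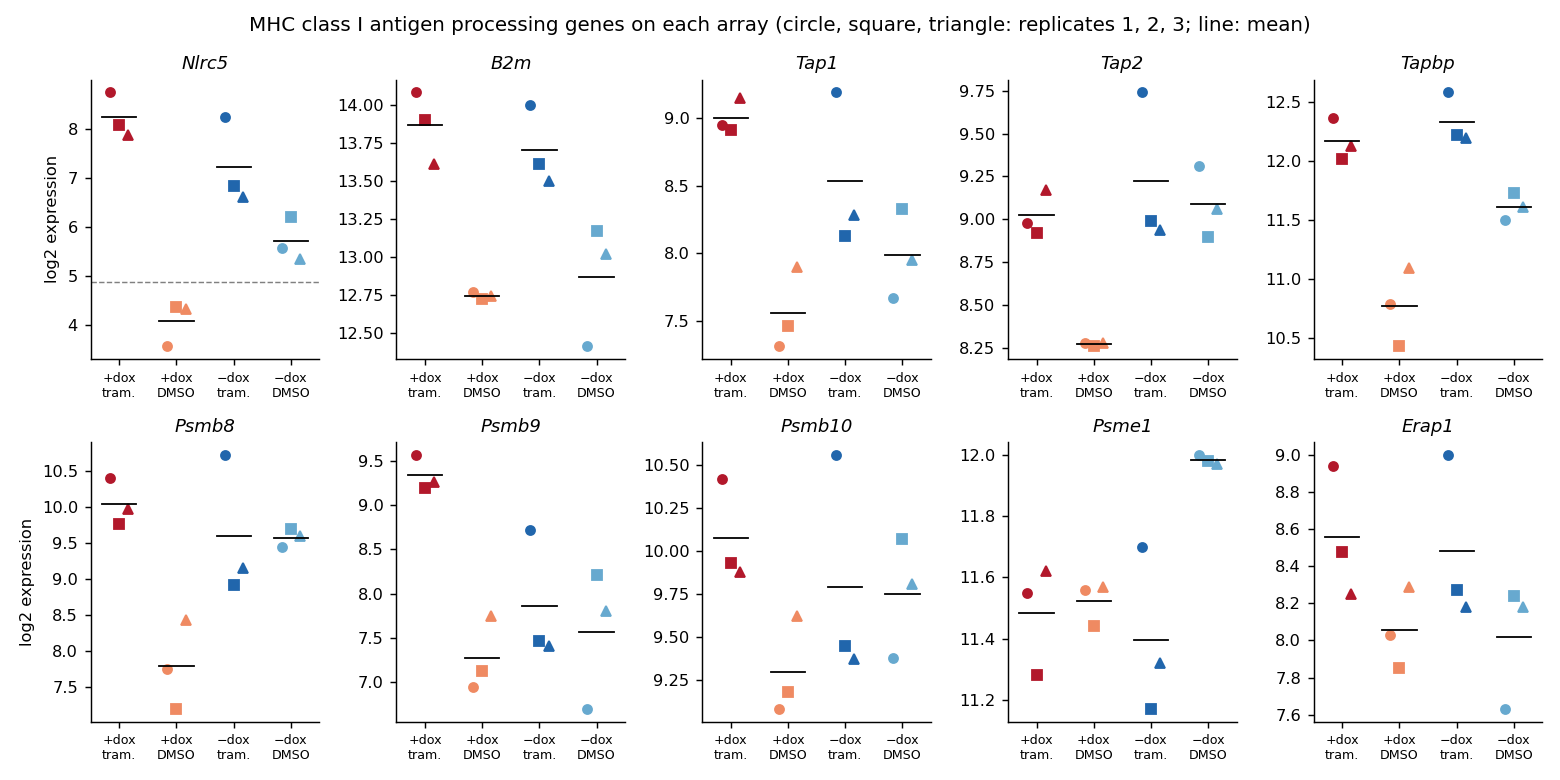
Log2 expression of the 10 antigen processing genes on each of the 12 arrays, by group (circle, square and triangle for replicates 1, 2 and 3, lines for group means, dashed line for the background level of 4.87 where it falls in range). The +dox trametinib arrays lie above the +dox DMSO arrays for 8 genes, and −dox trametinib replicate 1 is the highest of its group in all 10 panels.

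Control cells had 3 of the 10 genes higher with trametinib (Nlrc5, B2m and Tapbp) and 1 lower (Psme1), where 11.6% of all genes were higher and 10.8% lower. With a fold change over 2 as well, 1 was higher (Nlrc5) and 0 were lower, against 3.12% and 4.49% of all genes. The median change was 0.38, against 0.06 over all genes. Without −dox trametinib replicate 1 the change was 0.69 for B2m, 0.59 for Tapbp, 0.22 for Tap1, 0.21 for Erap1 and -0.74 for Psme1. It was -0.12 for Tap2, -0.14 for Psmb9, -0.34 for Psmb10 and -0.54 for Psmb8, which turned the sign of these 4 uncalled values. The median was then 0.042, and it was 0 without replicate 1 of both −dox groups, with no gene of the 10 called higher. B2m then had a change of 0.46 (adjusted p = 0.051, limma), Tapbp of 0.54 (0.081) and Nlrc5 of 0.95 (0.099).

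The drug response of +dox cells was set against that of −dox cells by a test of the difference itself. The estimate was positive, meaning a higher response in +dox cells, for all 10 genes, as for 46.0% of all genes, and its median was 0.71. None of the 10 passed after adjustment (smallest adjusted p = 0.105, limma), where 0.33% of all genes did. At an unadjusted p under 0.05, 7 of the 10 passed (Nlrc5, Psmb8, Psmb9, Tapbp, Psme1, Tap1 and Tap2), all higher in +dox cells, against 5.9% of all genes. The estimate was 2.63 for Nlrc5 (standard error 0.58, adjusted p = 0.10), of which the size is not exact because +dox DMSO arrays were under background. For Psmb8 it was 2.23 (standard error 0.60, adjusted p = 0.17) and for Psmb9 1.78 (standard error 0.59, adjusted p = 0.24).
Array weights, or leaving out the arrays that stood apart, moved this result. Without −dox trametinib replicate 1, Nlrc5 (3.13, adjusted p = 0.016) and Psmb8 (2.79, 0.017) passed. All 10 genes were highest of their group on that array, so leaving it out had to enlarge each difference. These passes are no separate result. Without replicate 1 of both −dox groups 5 passed: Psmb9 (2.65, adjusted p = 0.00487), Nlrc5 (3.21, 0.011), Psmb8 (2.86, 0.013), Tap1 (1.38, 0.029) and Tap2 (0.77, 0.035). This last choice was made after seeing the data, as was that of leaving out replicate 1 of all 4 groups, with which 3 passed (Nlrc5, Psmb8 and Psmb9). With array weights the same 3 genes passed. The share of all genes called moved too: 0.775% without −dox trametinib replicate 1, 1.76% without replicate 1 of both −dox groups, 2.39% without replicate 1 of all groups and 5.86% with array weights. For B2m and Erap1, the difference was 0.28 (95% interval -0.34 to 0.90) and 0.03 (95% interval -0.75 to 0.82).

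**Figure D4:**
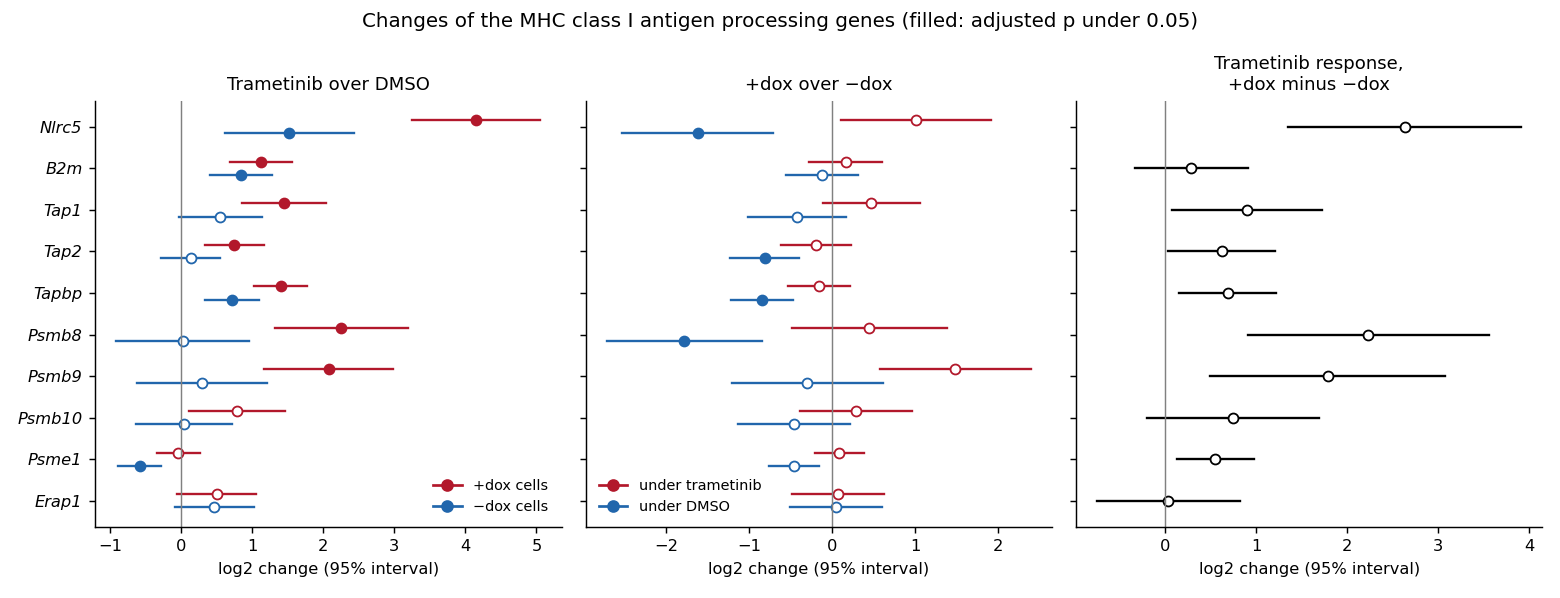
Log2 change with 95% interval of each gene for trametinib over DMSO in +dox and −dox cells (left), +dox over −dox cells under trametinib and under DMSO (middle) and the +dox minus −dox difference of the trametinib responses (right). Filled points have an adjusted p under 0.05: 7 rises in +dox cells, 3 rises and 1 fall in −dox cells, and 4 falls for +dox over −dox cells under DMSO.

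Without the drug, part of the set was lower in +dox than in −dox cells. Under DMSO, +dox cells had 4 of the 10 genes lower than −dox cells (Psmb8, Nlrc5, Tapbp and Tap2), 0 higher and 6 that did not pass. Over all genes 3.28% were lower and 2.87% higher. The median change was -0.46, against 0.01 over all genes, and 5 of the 10 were lower with no overlap between the arrays, against 11.1% of all genes. With a fold change over 2 as well 2 were lower (Psmb8 and Nlrc5), against 1.51% of all genes. Psmb8 measured 7.75, 7.19 and 8.43 in +dox cells, against 9.44, 9.69 and 9.59 in −dox cells, and fell by 1.78 (adjusted p = 0.033, limma). Nlrc5 lay under background in +dox cells, and its −dox mean lay 0.83 above that level. Its fitted change of -1.62 (95% interval -2.53 to -0.72, adjusted p = 0.042) is no exact size. Tapbp fell by 0.84 (adjusted p = 0.016) and Tap2 by 0.82 (0.030). The second Tapbp probe set did not pass here (-0.68, adjusted p = 0.224 over probe sets). Neither did the second Psmb8 probe set, under background on all arrays (-0.41, adjusted p = 0.396 over probe sets). Psme1 was lower on all +dox arrays too (11.56, 11.44 and 11.57, against 12, 11.98 and 11.97). Its change of -0.46 did not pass (adjusted p = 0.076) but did with the replicate number as a block (0.041) and without −dox trametinib replicate 1 (0.030).
These calls were the least firm of all comparisons. Of the 4 calls, leaving out replicate 1, 2 or 3 of the +dox DMSO arrays left 1 (Tapbp), 0 or 2 (Psmb8 and Tapbp), and leaving out replicate 1, 2 or 3 of the −dox DMSO arrays left 1 (Tapbp), 1 (Tap2) or 0. Nlrc5 also lost its call without +dox trametinib replicate 2 (adjusted p = 0.0582, limma) or 3 (0.0533) and without −dox trametinib replicate 2 (0.0504). The same happened with every probe set tested alone (0.0565). Each change kept its sign, with Psmb8 between -2.1 and -1.48 and Tapbp between -1.0 and -0.67 over the 12 fits that leave out an array.

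Under trametinib, 0 of the 10 genes passed between +dox and −dox cells, where 1.95% of all genes were higher and 1.42% lower. At an unadjusted p under 0.05, 2 of the 10 were higher (Psmb9 and Nlrc5), against 7.62% of all genes. Psmb9 measured 9.57, 9.20 and 9.26 in +dox cells, against 8.72, 7.46 and 7.40 in −dox cells, without overlap (1.48, standard error 0.41, adjusted p = 0.086, limma). Nlrc5 was 1.01 higher (adjusted p = 0.28), with overlapping arrays. Without −dox trametinib replicate 1 both passed, Psmb9 at 1.91 (adjusted p = 0.018) and Nlrc5 at 1.51 (0.027), and Psmb9 also passed without −dox DMSO replicate 1 (0.031). Both genes were highest of their group on −dox trametinib replicate 1, so leaving it out had to enlarge these differences. The other genes had 95% intervals that include 0, among them B2m (-0.28 to 0.60) and Tapbp (-0.54 to 0.22).

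Of the class I heavy chains, which carry the peptide at the cell surface, H2-K1 and H2-D1 were higher with trametinib in +dox cells. H2-K1 measured 12.90, 12.87 and 12.74 with trametinib, against 11.76, 11.91 and 11.90 with DMSO in +dox cells, a rise of 0.98 (adjusted p = 0.0040, limma). H2-D1 measured 13.10, 13.08 and 12.97, against 11.93, 12.12 and 12.08, a rise of 1.01 (adjusted p = 0.0031). In −dox cells neither passed (0.59, adjusted p = 0.058 and 0.53, adjusted p = 0.081). Without −dox trametinib replicate 1 the changes were 0.32 for H2-K1 and 0.26 for H2-D1, and both passed without −dox trametinib replicate 3. Class I genes are so alike that a probe set of 1 can take up transcripts of another, so these values are uncertain as to the gene. Of 13 measured heavy chain and class I-like genes, 3 were higher in +dox cells with trametinib (23.1%, against 13.8% of all genes) and 0 were lower. Besides the pair above, Cd1d1, a lipid-presenting molecule, rose by 1.45. Of the 13, 7 lay under the background level on all arrays. The median change of the 13 was 0.12, and in −dox cells 0 of 13 passed. The call of Cd1d1 was lost when +dox trametinib replicate 1 or +dox DMSO replicate 2 or 3 was left out.
Among 8 loading partners, Tapbpl, a tapasin relative that edits peptides, and the chaperone Calr were higher with trametinib in both states. They were 25% of the list, against 13.8% of all genes in +dox cells and 11.6% in −dox cells. Tapbpl measured 8.91, 8.68 and 8.60 with trametinib, against 7.07, 7.31 and 7.46 with DMSO in +dox cells, and rose by 1.45 (adjusted p = 0.00052) there and by 1.02 (0.0057) in −dox cells. The rise of Tapbpl in −dox cells was 0.60 without replicate 1 of both −dox groups (adjusted p = 0.0171). Calr rose by 0.58 (adjusted p = 0.0098) and 0.54 (0.018) in +dox and −dox cells, and lost the −dox call without −dox trametinib replicate 2 or −dox DMSO replicate 3. Of 7 other peptidases and related genes, 2 rose and 3 fell with trametinib in +dox cells (28.6% and 42.9%, against 13.8% and 12.5% of all genes). The peptidase Lap3 rose by 0.77, a call lost in 4 of the 12 fits that leave out an array, and Cast, an inhibitor of calpains whose gene neighbours Erap1, by 0.91. The peptidases Thop1 (-0.71), Tpp2 (-0.64) and Blmh (-0.47), which can cut peptides in the cytosol, were lower. Under DMSO, 2 of the 7 were higher in +dox than in −dox cells (28.6%, against 2.87% of all genes). Lap3 averaged 11.45 and 10.59 (adjusted p = 0.0482, limma) and Tpp2 9.71 and 9.26 (0.0273) in these groups. These calls were lost in 10 (Lap3) and 4 (Tpp2) of the 12 fits that leave out an array.

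Several genes of interferon signalling rose with the drug too. Of 12 measured, 4 were higher with trametinib in +dox cells (33.3%, against 13.8% of all genes), among them Stat2 (2.54), Irf9 (2.11) and Jak2 (1.08), and 1 was lower (Ptpn2, a phosphatase of the pathway, -0.53). Stat2 and Irf9 are parts of the factor that binds the ISRE. Stat2 measured 8.75, 8.59 and 8.64 with trametinib, against 6.10, 6.21 and 6.06 with DMSO in +dox cells (adjusted p = 2.04e-05, limma). In −dox cells 3 were higher (Stat2 by 0.93, Jak2 by 0.54 and Jak1 by 0.50) and Tyk2 was lower (-0.52). These shares were 25% and 8.33%, against 11.6% and 10.8% of all genes. Without −dox trametinib replicate 1, Jak2 (0.40, adjusted p = 0.0649) and Jak1 (0.47, 0.0615) lost their calls. Jak2 also lost it without −dox DMSO replicate 2 or 3, and Jak1 without −dox trametinib replicate 3 or −dox DMSO replicate 2 or 3. Under DMSO, Stat2 (-1.43), Irf9 (-1.09) and Ifngr2 (-0.96) were lower in +dox than in −dox cells, as Nlrc5, Psmb8, Tapbp and Tap2 were. They were 25% of the 12, against 3.28% of all genes. The call of Ifngr2 was lost with the replicate number as a block (adjusted p = 0.060, limma), and those of Ifngr2 and Irf9 were each lost in 10 of the 12 fits that leave out an array. That of Stat2 was kept in all 12.
Of 17 transcription factors linked to class I genes, 3 were higher with trametinib in +dox cells (17.6%, against 13.8% of all genes) and 0 were lower. In −dox cells 2 were higher (11.8%, against 11.6% of all genes). Both shares are near those of all genes. Irf7, a factor that interferon induces, measured 11.15, 10.77 and 10.75, against 7.45, 7.45 and 7.6, and rose by 3.39 (adjusted p = 5.52e-05). Relb rose by 1.43 and Irf1 by 1.27 (10.74, 10.72 and 10.44 with trametinib, against 9.27, 9.32 and 9.51 with DMSO). In −dox cells Irf7 (1.31) and Relb (1.14) rose, Irf1 did not pass (0.51, adjusted p = 0.070), and Rfx5, a factor of MHC promoters, fell (-0.59). The −dox rise of Irf7 was 0.91 without −dox trametinib replicate 1 (adjusted p = 0.0475) and 0.63 without replicate 1 of both −dox groups (0.0802), and its call was lost without −dox DMSO replicate 1 or 3. Rfx5 lost its call without replicate 2 or 3 of either −dox group, and Irf1 passed without −dox trametinib replicate 3. Under DMSO, 1 of the 17 was lower in +dox than in −dox cells (5.88%, against 3.28% of all genes). It was Irf7, which averaged 7.50 and 9.53 (adjusted p = 0.0068, limma), and this call was kept with each array left out. Ciita, the class II counterpart of Nlrc5, lay under background on all 12 arrays, and 0 of 9 measured class II presentation genes passed in any of the 5 comparisons.
The interferons themselves gave no call: 0 of 8 measured ligand genes passed in any comparison, and 6 of the 8 lay under the background level on all 12 arrays, Ifnb1 and Ifng among them. Ifna1 lay above it on 8 arrays and Ifnz on all 12. Ifnz averaged 6.18 with trametinib and 7.15 with DMSO in +dox cells (-0.97, adjusted p = 0.075).

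**Figure D5:**
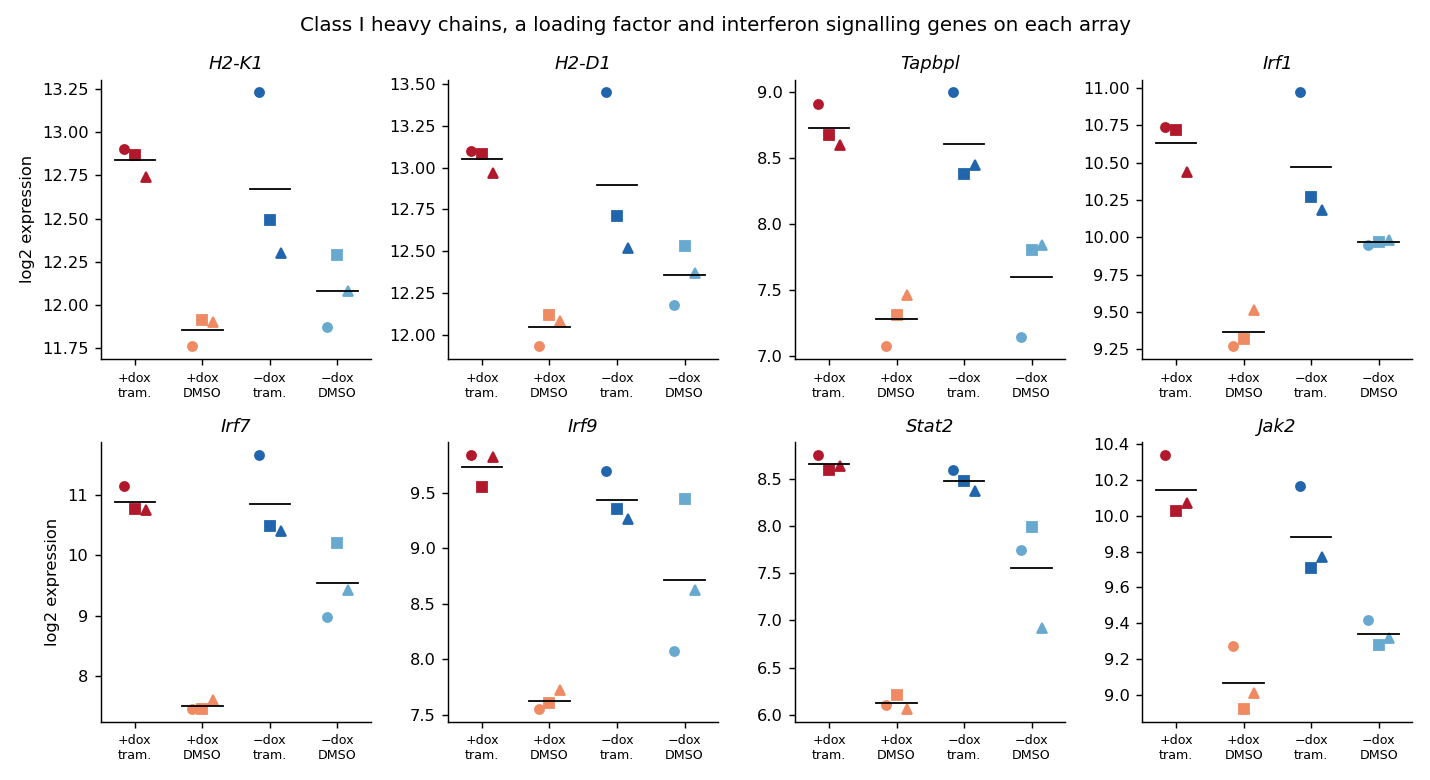
Log2 expression of class I heavy chains (H2-K1, H2-D1), the peptide editor Tapbpl and interferon signalling genes (Irf1, Irf7, Irf9, Stat2, Jak2) on each array, drawn as for the 10 genes. In every panel the +dox trametinib arrays lie above the +dox DMSO arrays.

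Markers of other cell types were read beside these results. Of 14 measured leukocyte markers 7 lay under the background level on all arrays, among them Ptprc, the defining surface phosphatase of leukocytes, and 4 lay above it on all. Their summed intensity, on the log2 scale, ran from 9.25 to 9.63 on +dox trametinib, 9.88 to 10.29 on +dox DMSO, 9.36 to 9.99 on −dox trametinib and 9.64 to 10.31 on −dox DMSO arrays. The sums on +dox trametinib arrays lay below those on +dox DMSO arrays, and were carried by Laptm5 (8.35 and 8.95 on average) and Cd68 (6.05 and 7.79). With trametinib in +dox cells 9 of the 14 had a positive change, with a median of 0.04. The calls were Cd3d higher (0.39) and Itgam lower, each 7.14% of the list, against 13.8% and 12.5% of all genes. The Cd3d call was lost in 5 of the 12 fits that leave out an array. Under DMSO, Itgam averaged 5.60 in +dox and 3.15, under background, in −dox cells. The +dox mean lay 0.73 above the background level. Itgam was called higher there (adjusted p = 0.0136, limma), a call lost without +dox DMSO replicate 3. Some of the 7 fibroblast markers moved with the groups. The sum over all 7 ran from 10.42 to 10.64 on +dox trametinib, 8.56 to 9.35 on +dox DMSO, 11.42 to 11.68 on −dox trametinib and 10.77 to 11.28 on −dox DMSO arrays. Of the 7, 4 were lower in +dox than in −dox cells under DMSO (Pdgfrb, Col1a1, Dcn and Pdgfra), or 57.1% against 3.28% of all genes. With trametinib in +dox cells 2 rose (Dcn and Col1a1), or 28.6% against 13.8% of all genes. Thy1 and Lum lay under background on all arrays. The part of the fibroblast markers in the results was not tested. Of 5 endothelial markers none lay above background on all arrays and 3 lay above it on none, while Kdr did on 11 and Tek on 7. Kdr was called higher in +dox than in −dox cells under DMSO (5.46 and 5.05 on average, adjusted p = 0.0487, limma). That is 20% of the list, against 2.87% of all genes, and the call was lost in 11 of the 12 fits that leave out an array. In bulk samples, fewer cells of a type and less RNA per cell cannot be told apart.

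The 10 genes resembled each other to different degrees over the 12 arrays. Each gene was first standardised, that is brought to the same mean and spread over the 12 arrays. The correlation of a gene with the mean of the other 9 on that scale (Pearson, as a description, over arrays that share group and array effects) was highest for Psmb8 (0.94), Tap1 (0.93), Psmb10 (0.91) and Nlrc5 (0.91). It was lower for Tapbp (0.87), Psmb9 (0.81), B2m (0.81), Erap1 (0.77) and Tap2 (0.73), and -0.04 for Psme1. Among 11974 other genes with a mean above background, those whose values most resembled the mean of the 10 standardised genes were Trim21 (0.97), Rnf135 (0.97), Phf11d (0.96), Ube2l6 (0.96), Il18bp (0.96) and Trim30d (0.95). Trim21 encodes a cytosolic antibody receptor and ubiquitin ligase, and Ube2l6 the enzyme that conjugates the ubiquitin-like protein Isg15. Trim21 averaged 9.53 on +dox trametinib, 7.77 on +dox DMSO, 8.91 on −dox trametinib and 8.59 on −dox DMSO arrays. Replicate 1 was the highest of its −dox trametinib arrays, as for the 10 genes. It was picked for its likeness over these same arrays, so that is no separate result.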

How the data were processed

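Total RNA of C790 cells was hybridised to Affymetrix mouse genome arrays. The authors normalised the array files by RMA in Chipster, and the deposited table, taken unchanged, gives a log2 intensity for each probe set, between 2.15 and 14.46. RMA gives all arrays a common distribution, so a shift shared by most genes would not be seen, and the table holds no detection calls or depth. The number of arrays limits the precision.

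Of 45101 probe sets, 64 controls, 9160 without a gene and 932 with several genes were left out. The annotation is the platform's, which can be old. Levels of different genes were not ranked. The marker sums add intensities of probe sets whose affinities may differ.

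All 12 arrays were fitted with a mean per group in limma 3.58.1 (R 4.3.3, lmFit and eBayes, default settings), with Benjamini-Hochberg adjustment over 18193 genes. Where a gene averaged below background in 1 of the compared groups, the distance of the other mean from that level is given. It depends on the level chosen and is not a confidence limit. Non-overlap counts and no-test descriptions use the same values. Promoter windows came from RefSeq (GRCm38.p6). Simulated arrays with known changes served to test the fit. Python 3.11.15 with matplotlib 3.10.9 drew the figures.

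Whether arrays of the same replicate number belong together was checked by correlating their deviations from the group means. Each of the 3 correlations passed 0.1 for trametinib in +dox cells (0.16 to 0.45) and for dox under DMSO (0.17 to 0.34) and trametinib (0.21 to 0.29). They did not for the drug in −dox cells (0.02 to 0.46). No label states a pairing. The fit reported has no block, and blocked values appear only where they change a call.

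Named are the 10 genes, the largest called rises and falls of each list (up to 3 in each direction), H2-K1, H2-D1, Irf1, Psmb5, Psmb6 and Psmb7 whatever their change, and the 6 genes most alike in pattern. Any other gene was named after its values were seen. The genes and lists were chosen with earlier results of these data known. Alternatives were the replicate block, other arrays or probe sets in the fit, other normalisation, weights, thresholds and background levels, and each array left out.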

Additional observations from a re-analysis of the deposited data

How the results depend on the processing

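Over all comparisons and alternatives, 1158 of 1240 values for the 10 genes kept their side of the threshold, 50 lost a call, 32 gained one and 0 turned a called direction. Of the 1158, 43 had the other sign, none of them called. The 7 rises with trametinib in +dox cells were 7 or 8 with each array left out, and the median change of all 10 genes lay between 1.16 and 1.34. Tap2 lost that call at an adjusted p under 0.01 and with a fold change over 2.

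For trametinib in −dox cells, the 3 rises and 1 fall became 1 and 0 with a fold change over 2, 0 and 0 at an adjusted p under 0.01, and 1 rise with no other groups in the fit. The rises became 0 without both −dox replicates 1. With each array left out there were 2 or 3 rises and a median between 0.042 and 0.60. The median was 0 without both −dox replicates 1 and 0 without all replicates 1.

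For dox under DMSO, the 4 falls became 2 with a fold change over 2, 0 at an adjusted p under 0.01 and 2 with the mean of all probe sets, and ran from 0 to 5 with each array left out.

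For dox under trametinib, the 0 rises became 1 with array weights, 3 without both −dox replicates 1 and 3 without all replicates 1, and ran from 0 to 2 with each array left out.

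For the difference of the responses, the 0 genes called became 3 with array weights, 5 without both −dox replicates 1 (median 1.09) and 3 without all replicates 1, and ran from 0 to 2 with each array left out.

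The replicate block changed the call of Psme1 under DMSO (adjusted p = 0.041, limma) and no other call of the 10. Over all genes it moved the count for the difference of the responses from 60 to 141. That count was 1066 with array weights, 36 with every probe set tested alone, 320 without both −dox replicates 1, 435 without all replicates 1 and 13 to 200 with each array left out. With each array left out, the all-gene count ran from 465 to 1297 for dox under DMSO (550 with no other groups in the fit, 1862 without all replicates 1) and from 295 to 964 for dox under trametinib (1482 without both −dox replicates 1, 1149 without all replicates 1). Array weights also moved the all-gene counts for trametinib in −dox cells (7131, against 4072), dox under DMSO (4086, against 1118) and dox under trametinib (1427, against 614). The causes were not tested.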
